A study of Homo sapiens with 11 samples.

Results

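The invasion proteases and inhibitors described here are 10 genes of pericellular proteolysis, MMP1, MMP2, MMP7, MMP14, MMP15, PLAU, PLAUR, TIMP1, TIMP2 and TIMP3, out of 57773 genes in the expression table. They were chosen by name, and no threshold on a measured value entered the rule, although earlier results of these data were known when they were chosen. Each name has a single entry in the table. Expression was measured by RNA-Seq in 9 libraries from HCC78, a lung adenocarcinoma line that itself carries the U2AF1 S34F mutation together with an SLC34A2-ROS1 fusion. U2AF1 recognizes the 3′ end of introns, and S34F exchanges a serine of its RNA-binding zinc finger. The cells carried a doxycycline-inducible lentiviral construct for FLAG- and 6xHA-tagged U2AF1, either wild-type or S34F, as stable subclones, so a difference between the lines can also be a difference between clones. The groups were WT dox+ and WT dox-, the wild-type line cultured with and without doxycycline (2 libraries each), S34F dox+ and S34F dox-, the S34F line in the same conditions (2 libraries and 1 library), and the untransduced parental line (2 libraries), which also carries the endogenous mutation and which the labels give as without doxycycline. Induction times are not given in the labels. Nothing says that replicates came from separate cultures, so the p-values measure only the spread between these libraries, which may be technical.

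Matrix metalloproteinases (MMPs) cut collagen, laminin and other proteins around the cell, and most are secreted as inactive proenzymes, while MMP14 and MMP15 sit in the plasma membrane. PLAU, or urokinase, binds its receptor PLAUR at the cell surface and turns plasminogen into plasmin, which degrades fibrin and activates several MMPs. The TIMPs bind and block active MMPs, and TIMP2 also docks the MMP2 proenzyme onto MMP14 for its activation. Many carcinomas express several of these genes at the invasive edge. All values below are mRNA levels. Whether cells differ in number or in RNA per cell cannot be told apart in bulk samples, and enzyme activity was not measured.

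Promoter sequences of RefSeq (GRCh38.p14, 250 bases before to 50 after the gene start) matched 7 of the 10 genes by symbol, PLAU with a pair of entries, while MMP1, MMP2 and TIMP2 were not matched. They were searched on both strands for TGANTCA, the core of the AP-1 element through which JUN and FOS proteins act on protease genes. It occurred in the windows of MMP7 and PLAUR, once in each, and in 7.71% of all 35116 promoter windows. These were the only matches among the members with a window, and both stretches are shown with the element in capitals. The MMP7 stretch lies at chr11:102530798-102530824 on the minus strand and the PLAUR stretch at chr19:43670339-43670365 on the minus strand. The elements begin 67 bases before the start of MMP7 and 186 bases before the start of PLAUR.
MMP7: aacactcaaaTGAGTCAcctatttcca
PLAUR: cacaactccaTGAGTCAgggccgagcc
Both carry the same 7 letters. The TCF/LEF element CTTTGAT or its complement ATCAAAG, present in 2.62% of all windows, was in none of the windows of the 7 genes. A match is a description of the letters only.

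The libraries differed in ways that bear on these genes. FPKM, fragments per transcript length and sequencing depth, was given without counts, so the depth behind each value is unknown. U2AF1 itself was at 278 and 299 FPKM in WT dox+, at 164 and 223 in S34F dox+ and between 103 and 115 in the other 5 libraries, and the labels put S34F at 12% and 14% of U2AF1 mRNA in WT dox+, 62% and 65% in S34F dox+ and 28% to 33% elsewhere. S34F dox+ replicate 2 stood apart, with 20896 genes at 1 FPKM or more against 13661 to 17716 in the other 8 libraries. All 4 dox+ libraries, at 15736 to 20896, lay above the 5 libraries labelled without doxycycline, at 13661 to 14688. The epithelial markers EPCAM and KRT7 were at no less than 407 and 2873 FPKM in every library. The sum of 6 fibroblast markers lay between 3.57 and 13.4 FPKM, highest in WT dox+ replicate 2 and S34F dox+ replicate 2, and that of 3 leukocyte markers between 0.31 and 4.71, where PTPRC, CD14 and CD3E were each at 0 in at least 1 library. The part of these sums and of the numbers of genes detected in any result below was not tested.

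The 10 genes covered a wide range of levels, and 2 of them were hardly expressed. Levels are compared in FPKM, which is per length. PLAU was the highest by far, with a mean of 361 FPKM over the 9 libraries and a rank between 260 and 390 among all genes of each library. TIMP1 followed at a mean of 75.8 FPKM and PLAUR at 38.5, then MMP7 at 27.4, TIMP2 at 25.8 and MMP14 at 21.9, neighbours whose ranges over the libraries overlapped. MMP15 was lower at a mean of 8.55 FPKM and MMP1 lower again at 2.61. MMP2 and TIMP3 lay under 1 FPKM in every library and were not tested, which leaves 8 members among the 15179 genes tested, those whose mean over the libraries reached 1 FPKM. MMP1 was also under 1 FPKM in parental replicate 2, at 0.59.

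**Figure D1:**
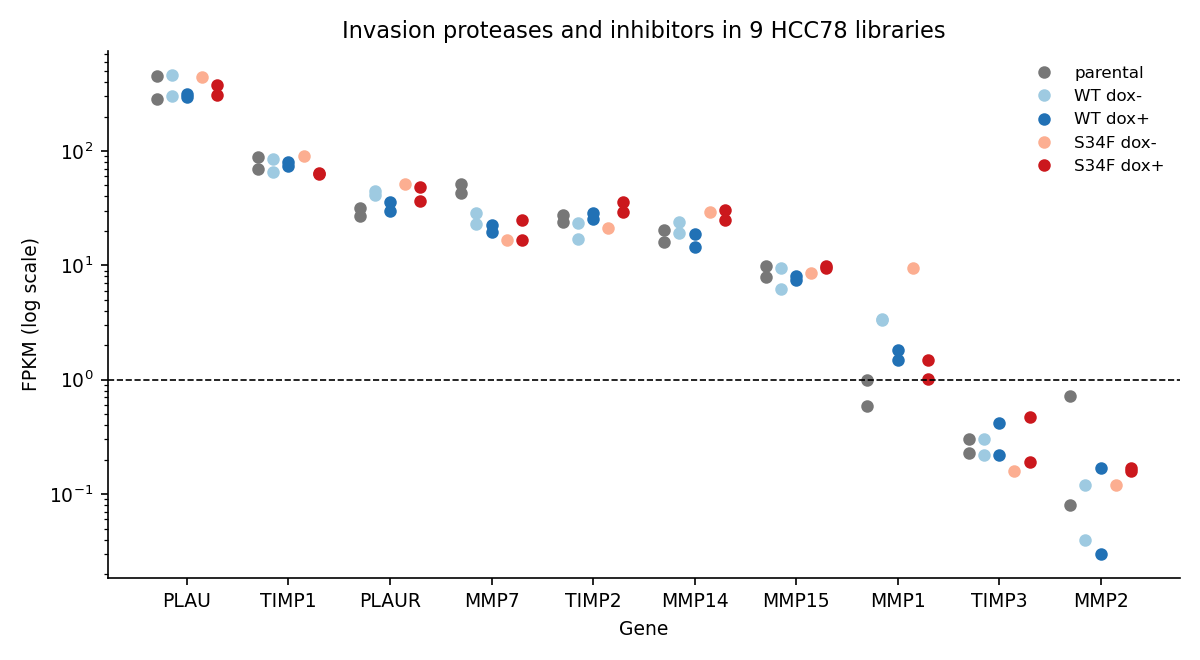
FPKM (log scale) of the 10 genes in the 9 libraries, 1 point per library, coloured by group and ordered by the mean. PLAU lies above 282 FPKM in every library, and TIMP3 and MMP2 lie under the dashed line at 1 FPKM in every library.

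The question in S34F dox+ against WT dox+ was which of these genes differed when the induced protein was mutant rather than wild-type. The membrane-anchored collagenase MMP14 had the largest difference of the members. Its level was 30.67 and 24.94 FPKM in the S34F dox+ libraries and 18.8 and 14.43 in the WT dox+ libraries. Both mutant libraries lay above both wild-type libraries, and the mean was 1.67-fold higher. The log2 difference was 0.71 (SE 0.20, 95% confidence interval 0.25 to 1.18), with an unadjusted p of 0.00772 and an adjusted p of 0.546 in limma. The difference therefore did not pass the test over all genes. Leaving out S34F dox+ replicate 2, the library that stood apart, it was 0.86.

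MMP15, the other membrane-type member, was at 9.54 and 9.89 FPKM in S34F dox+ and at 8 and 7.39 in WT dox+, a log2 difference of 0.30 (SE 0.21, adjusted p = 0.819 in limma). TIMP2, the MMP14 partner, was at 35.81 and 29.24 FPKM in S34F dox+ and at 25.55 and 28.7 in WT dox+, a log2 difference of 0.25 (SE 0.18, adjusted p = 0.838 in limma). In FPKM the lowest mutant library exceeded the highest wild-type library in both genes. In TPM, which scales each library to a fixed sum, this held for MMP15 and not for TIMP2, where S34F dox+ replicate 2, at 25.17, lay below WT dox+ replicate 2, at 25.25.

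The urokinase receptor PLAUR was at 36.23 and 48.55 FPKM in S34F dox+ and at 30.15 and 35.73 in WT dox+, with a log2 difference of 0.34 (SE 0.17, adjusted p = 0.759 in limma). The groups did not overlap in FPKM but did in TPM, with 29.33 and 41.8 against 28.13 and 31.43. Without S34F dox+ replicate 2 that difference was 0.14. Its ligand PLAU was at 378.95 and 307.14 FPKM in S34F dox+ and at 315.57 and 295.62 in WT dox+, and the groups overlapped.

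The inhibitor TIMP1 went the other way. It was at 63.71 and 63.4 FPKM in S34F dox+ and at 80.8 and 74.24 in WT dox+, a log2 difference of -0.28 (SE 0.16, adjusted p = 0.782 in limma). Both mutant libraries were below both wild-type libraries, and for TIMP1 the S34F dox+ libraries were the lowest of the 9. The share of all genes lowest in this way was not counted. The secreted members MMP1, an interstitial collagenase, and MMP7, or matrilysin, overlapped between the groups, at 1.01 and 1.48 against 1.48 and 1.8 FPKM for MMP1 and at 25.15 and 16.81 against 22.47 and 19.43 FPKM for MMP7. MMP7 had a log2 difference of -0.02 with an interval from -0.51 to 0.47, which leaves room for sizeable differences in either direction.

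In all, 0 of 8 members had an adjusted p under 0.05 in limma, against 0.0527% of all genes tested, and 1 had an unadjusted p under 0.05, against 6.78%. Of the 8, 4 were higher without overlap, against 20.5% of all genes, and 1 lower, against 15.3%, or 35.8% in either direction. In TPM the count was 2 higher (MMP14 and MMP15) and 2 lower (TIMP1 and MMP1), against 10.9% and 27.2% of the same genes. The median log2 difference was 0.20 over the members and 0.03 over all genes. The level of all genes moved with the scale: with TPM in place of FPKM, the median over all genes was -0.07, an unadjusted p under 0.05 was reached by 296 genes on the higher side and 1016 on the lower (609 and 420 with FPKM), and the median of the members was 0.09, with 5 of 8 above 0 on either scale.

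**Figure D2:**
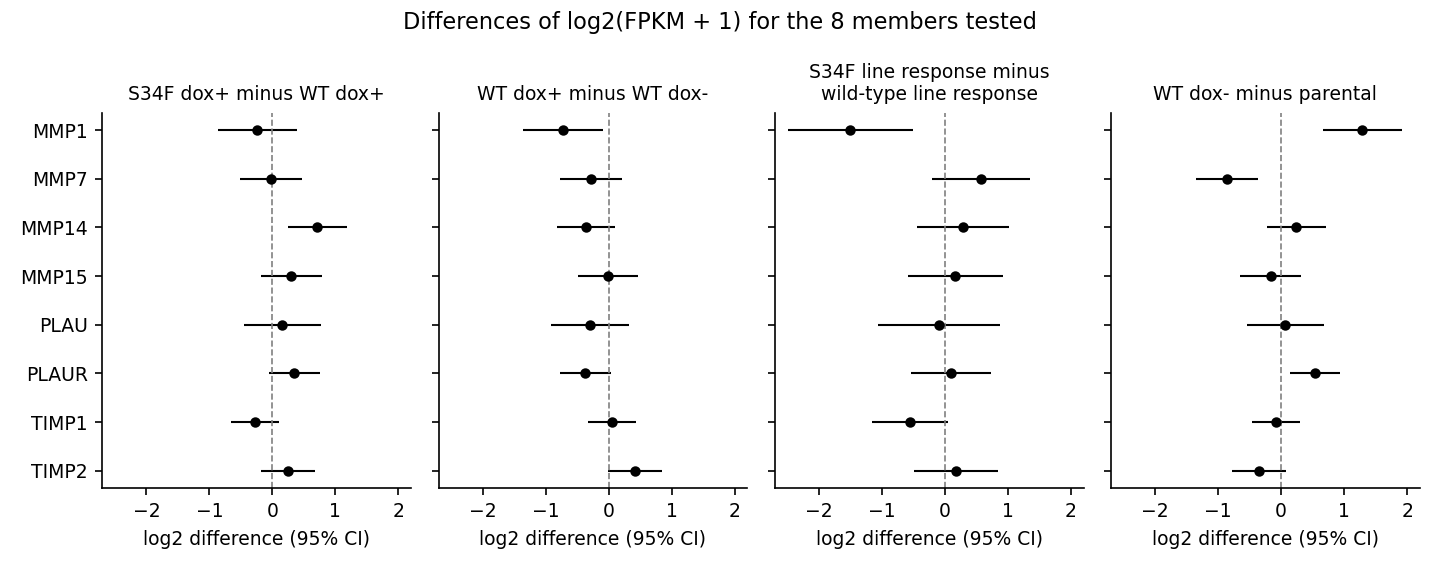
Differences of log2(FPKM + 1) with 95% confidence intervals from limma for the 8 members tested, 1 panel per comparison, with the dashed line at 0. The interval leaves out 0 for MMP14 in the first panel, MMP1 in the panels of the wild-type doxycycline response and of the contrast of responses, and MMP1, MMP7 and PLAUR in that against the parental line.

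MMP14 also separated the 2 transduced lines whether or not doxycycline was given. The single S34F dox- library was at 29.27 FPKM, and the WT dox- libraries were at 19.29 and 23.85. All 3 S34F line libraries, at 24.94 to 30.67 FPKM, were above all 4 wild-type line libraries, at 14.43 to 23.85, and the ratio of means was 1.48. This held in TPM, with 21.5 to 26.6 against 12.7 to 21.0. Of all genes tested, 2.81% were higher in the S34F line without overlap in this way and 2.09% lower, and MMP14 was the only member in either set. The S34F dox- library, with S34F at 28% of U2AF1 mRNA, was as high as the induced ones, and clone and mutant induction cannot be told apart in this set of libraries. The parental libraries were at 15.85 and 20.4 FPKM, within the range of the wild-type line.

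MMP14 was set against TIMP1 and TIMP2 as a ratio of FPKM within each library. MMP14 to TIMP1 was 0.481 and 0.393 in S34F dox+, 0.324 in S34F dox-, 0.296 and 0.279 in WT dox-, 0.233 and 0.194 in WT dox+, and 0.227 and 0.229 in the parental line. The 2 highest ratios were those of S34F dox+, in which MMP14 was higher and TIMP1 lower than in WT dox+. MMP14 to TIMP2 was highest in S34F dox-, at 1.39, followed by WT dox- at 1.13 and 1.02, while S34F dox+ was at 0.856 and 0.853, WT dox+ at 0.736 and 0.503 and the parental line at 0.662 and 0.737. Here the libraries without doxycycline of both transduced lines lay above all others. These ratios were not tested.

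**Figure D3:**
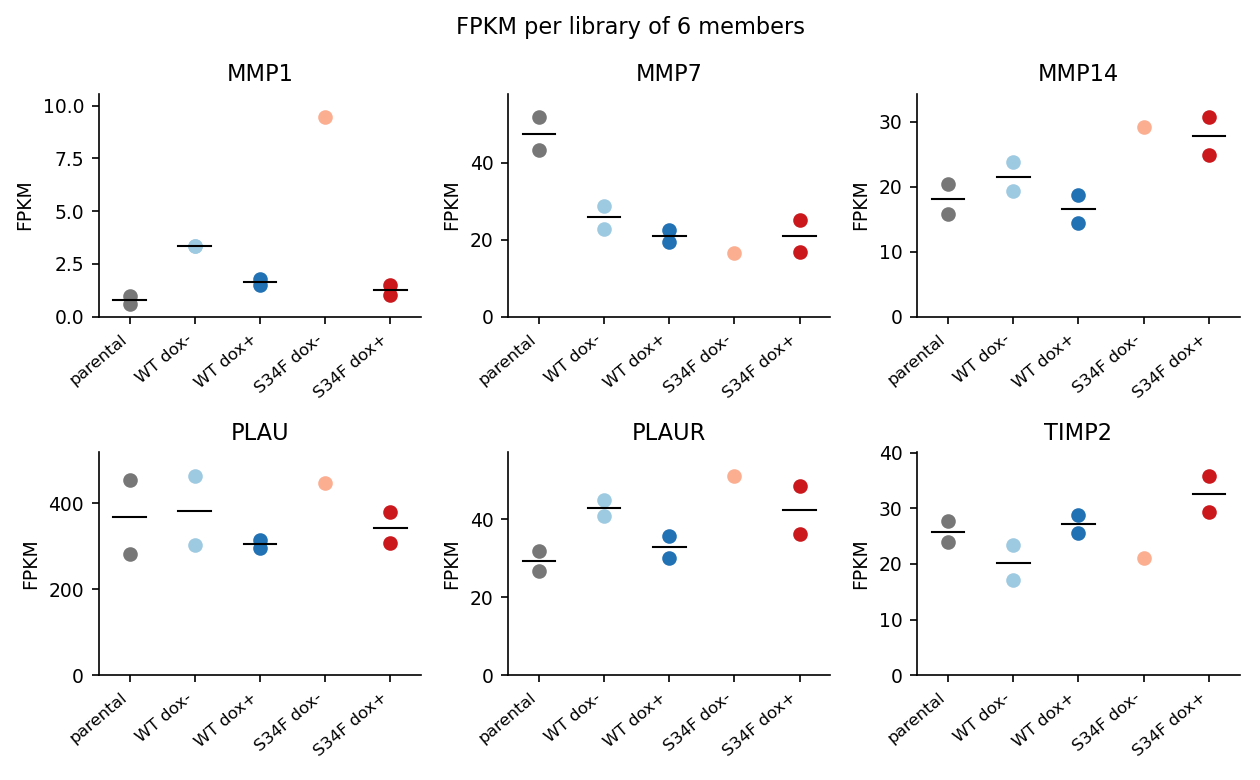
FPKM per library (linear axis from 0) of MMP1, MMP7, MMP14, PLAU, PLAUR and TIMP2 by group, with a bar at the mean where a group has 2 libraries. MMP14 is at 24.94 FPKM or more in the S34F line and at 23.85 or less in the wild-type line and the parental line, and MMP1 is highest in S34F dox-, at 9.44.

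WT dox+ against WT dox- asked what induction of wild-type U2AF1, together with the drug itself, did to these genes. MMP1 was the member with the lowest unadjusted p. Its level was 1.48 and 1.8 FPKM with doxycycline and 3.33 and 3.37 without it. The replicates lay close to each other and the groups did not overlap. On the log2 scale MMP1 was lower by 0.72 (SE 0.27, 95% interval of the difference -1.35 to -0.09), with an unadjusted p of 0.0295 and an adjusted p of 0.295 in limma. The S34F line showed the same order, with 1.01 and 1.48 FPKM in S34F dox+ and 9.44 in S34F dox-.

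TIMP2 was on the opposite side, at 25.55 and 28.7 FPKM in WT dox+ and at 17.06 and 23.39 in WT dox-, a log2 difference of 0.42 (SE 0.18, unadjusted p = 0.0524 and adjusted p = 0.352 in limma). PLAUR was at 30.15 and 35.73 FPKM in WT dox+ and at 44.85 and 40.82 in WT dox-, a log2 difference of -0.37 (SE 0.17, adjusted p = 0.379 in limma). MMP14 and MMP7 were also lower without overlap in FPKM, by log2 differences of -0.36 and -0.28, but both overlapped in TPM, and neither had an unadjusted p under 0.05. PLAU, MMP15 and TIMP1 overlapped, and the WT dox- replicates of PLAU alone spanned 302.63 to 464.02 FPKM.

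Among the 8 members, 0 had an adjusted p under 0.05 in limma (0.0132% of all genes) and 1 had an unadjusted p under 0.05 (14.4%). There were 4 members lower without overlap and 1 higher, against 20.8% and 28.9% of all genes, or 49.6% in either direction. In TPM 2 were lower (MMP1 and PLAUR) and 1 higher (TIMP2), against 18.1% and 31.3%. Leaving out 1 library moved the log2 difference of TIMP2 between 0.20 and 0.64 and that of MMP14 between -0.54 and -0.18. The median log2 difference of the members was -0.29 and that of all genes 0.05. Over both transduced lines, the 4 dox+ libraries had less MMP1 than the 3 dox- libraries, at 1.01 to 1.8 against 3.33 to 9.44 FPKM, and more TIMP2, at 25.55 to 35.81 against 17.06 to 23.39. Both orders were the same in TPM, and of all genes 9.76% were lower and 15.2% higher in the dox+ libraries in this way. The parental libraries had 1 and 0.59 FPKM of MMP1, no more than any dox+ library, and 23.94 and 27.68 FPKM of TIMP2, more than any dox- library, and neither order held in TPM. An effect of the drug cannot be told apart from that of the induced protein.

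The contrast between the responses of the lines asked whether doxycycline moved a gene differently where the induced protein was S34F. It rests on the 1 library of S34F dox-, which has no spread of its own, so the SE, interval and p below assume that this library varies like those of the other groups. MMP1, which was highest in that library, differed most. The response of the S34F line was more negative than that of the wild-type line by a log2 difference of -1.50 (SE 0.43, 95% interval -2.50 to -0.51), with an unadjusted p of 0.00861 and an adjusted p of 1 in limma. In FPKM the step was from 9.44 to a mean of 1.25 in the S34F line and from a mean of 3.35 to 1.64 in the wild-type line. TIMP1 had a log2 difference of the responses of -0.55 (SE 0.26, unadjusted p = 0.0695). For MMP7 in FPKM, the S34F dox+ libraries were at 25.15 and 16.81 FPKM and the S34F dox- library at 16.58, while in the wild-type line the order was the opposite, and the difference of the responses was 0.58 (SE 0.34, adjusted p = 1 in limma). In TPM the libraries with and without doxycycline overlapped in both lines. The share of all genes with opposite orders in the lines was not counted. The remaining 5 members had differences of the responses between -0.10 and 0.28. Of the 8 members, 0 had an adjusted p under 0.05 in limma (0.0264% of all genes) and 1 had an unadjusted p under 0.05 (3.42%). With TPM the median over all genes went from 0.03 to -0.11, and that of the members from 0.13 to -0.01.

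WT dox- against parental compared cells that carry the construct without drug with cells that do not carry it. The labels give the parental line as without doxycycline and a supplementary heading gives it as with it. The drug may therefore also differ here. MMP1, MMP7 and PLAUR stood furthest apart in this comparison. MMP1 was at 3.33 and 3.37 FPKM in WT dox- and at 1 and 0.59 in the parental line. The mean was 4.21-fold higher in WT dox-, with a log2(FPKM + 1) difference of 1.29 (SE 0.27, 95% interval 0.66 to 1.92), an unadjusted p of 0.00165 and an adjusted p of 0.149 in limma. At such low levels the added 1 FPKM makes the log2 difference smaller than the fold, and with 0.1 FPKM added in its place it was 1.99.

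MMP7 was at 22.86 and 28.68 FPKM in WT dox- and at 51.73 and 43.22 in the parental line, with a log2 difference of -0.86 (SE 0.21, 95% interval -1.35 to -0.37, unadjusted p = 0.00409 and adjusted p = 0.197 in limma). It was lower in all 7 libraries of the transduced lines, at 16.58 to 28.68 FPKM, than in either parental library, and 4.66% of all genes were lower in this way. PLAUR was at 44.85 and 40.82 FPKM in WT dox- and at 26.77 and 31.82 in the parental line. Its log2 difference was 0.54 (SE 0.17, 95% interval 0.13 to 0.94, unadjusted p = 0.0157 and adjusted p = 0.286 in limma). Over the 9 libraries, which share lines and processing, log2 levels of MMP7 and PLAUR had a Pearson r of -0.76, the most negative of the 28 pairs among the 8 members.

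In FPKM MMP1 was higher in all 7 transduced libraries, at 1.01 to 9.44, than in the parental line, a pattern of 5.3% of all genes, but in TPM S34F dox+ replicate 1, at 0.82, was just below the higher parental library, at 0.83. PLAUR showed the reverse: the groups overlapped in FPKM and not in TPM, with 28.1 to 46.6 in the transduced lines and 22.4 to 26.1 in the parental line. The share of all genes with this order in TPM was not counted, so whether PLAUR is unusual in it is not known. TIMP2 was lower in WT dox- than in the parental line, with a log2 difference of -0.35 (SE 0.18, adjusted p = 0.499 in limma), which lay between -0.57 and -0.13 when 1 library was left out, and the groups overlapped in TPM. Among the members, 0 of 8 had an adjusted p under 0.05 in limma (0.0988% of all genes). An unadjusted p under 0.05 was reached by 2 members that were higher and 1 that was lower, against 5.79% and 6.54% of all genes. Without overlap, 2 members were higher (21.6% of all genes) and 2 lower (22.4%), where 44% of all genes did not overlap in either direction. In TPM 3 were higher (MMP1, MMP14 and PLAUR) and 1 lower (MMP7), against 31.2% and 15.4%. The median log2 difference was -0.01 over the members and 0 over all genes. In TPM an unadjusted p under 0.05 was reached by 1499 genes on the higher side and 598 on the lower, against 879 and 993 in FPKM.

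A wider list of 86 other genes of pericellular proteolysis, of which 85 were in the table and 52 were tested, was read beside the members. In each of the 4 comparisons 0 of the 52 had an adjusted p under 0.05 in limma. In FPKM an unadjusted p under 0.05 was reached in S34F dox+ against WT dox+ by 2 that were higher and 3 that were lower (4.01% and 2.77% of all genes). The counts were 7 higher and 4 lower in WT dox+ against WT dox- (8.8% and 5.59%), 1 higher and 0 lower in the contrast of the responses (2.21% and 1.21%) and 4 higher and 13 lower in WT dox- against the parental line (5.79% and 6.54%).

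The largest of these differences with S34F was in the other plasminogen activator. PLAT, tissue-type plasminogen activator, was at 40.05 and 30.52 FPKM in S34F dox+ and at 111.71 and 96.05 in WT dox+, a log2 difference of -1.54 (SE 0.37, unadjusted p = 0.00378 and adjusted p = 0.531 in limma). The S34F dox+ libraries were the lowest of the 9, and the other 7 lay between 96.05 and 258.05 FPKM. How many of all genes had this order was not counted. In the wild-type line PLAT was also lower with doxycycline, as WT dox- was at 132.92 and 258.05 FPKM. That log2 difference was -0.83 (SE 0.37, adjusted p = 0.366 in limma). The single S34F dox- library was at 137.82 FPKM, and the difference of the responses was -1.12. PLAU, which acts on the same substrate, was not lowest in S34F dox+, and its level there overlapped with WT dox+. ANXA2, a subunit of a plasminogen receptor, was at 1286 and 1165 FPKM in S34F dox+ and at 1585 and 1661 in WT dox+, a log2 difference of -0.41 (SE 0.10, adjusted p = 0.531 in limma), and again no other library was as low. CTSB, a lysosomal cysteine protease, had a difference of 0.33 and the mitochondrial protease HTRA2 one of -0.40. In TPM this comparison had 0 higher and 5 lower of 51 listed genes at an unadjusted p under 0.05 in limma. The shares of all genes were 2.04% and 6.99%. ITGB3, an integrin subunit, is outside the naming rule because of its low level and was named after its values were seen. It had a difference of 1.43 (SE 0.41, adjusted p = 0.555 in limma) at a mean of 1.71 FPKM over the 4 libraries compared. Over the 4 libraries of the wild-type line, with and without doxycycline, its mean was 0.5025 FPKM, under 1 FPKM.

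In WT dox- against the parental line, the aspartic protease CTSD was at 138.87 and 187.15 FPKM in WT dox- and at 351.01 and 303.35 in the parental line, a log2 difference of -1.01 (SE 0.16, unadjusted p = 0.000336 and adjusted p = 0.107 in limma). The membrane serine proteases TMPRSS4 and PRSS8 had differences of -1.22 and -0.89. Of the 28 genes in the class of other proteases, 11 were lower and 2 higher at an unadjusted p under 0.05, against 6.54% and 5.79% of all genes. In TPM these counts were 9 and 3, against 4.12% and 10.3%, and over the whole list, with 51 genes tested, 9 were lower and 8 higher. ADAMTS9, at 0.99, CD44, a hyaluronan receptor that anchors MMPs at the surface, at 0.52, and the plasminogen receptor PLGRKT, at 0.37, were on the higher side. With doxycycline in the wild-type line, TMPRSS4, CTSH and CPD were higher, by 0.66, 0.66 and 0.58, and CD44, ADAM8 and CTSB had differences of -0.49, -0.40 and -0.39, all with adjusted p of 0.156 or more in limma.

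**Figure D4:**
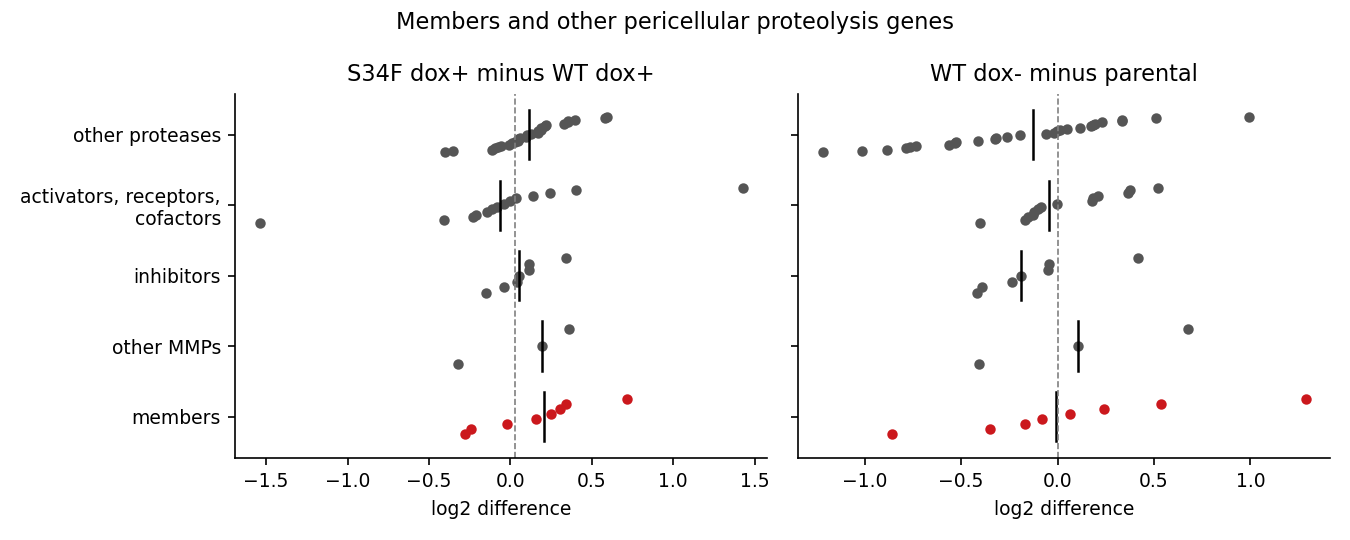
Log2 differences of the 8 members tested (red) and of the 52 other proteolysis genes tested (grey, by class) in S34F dox+ minus WT dox+ and in WT dox- minus parental, with a bar at the median of each class and a dashed line at the median of all genes. PLAT is the lowest point on the left, at -1.54, and TMPRSS4 the lowest on the right, at -1.22.

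The genes most like a member were found by Pearson correlation of log2(FPKM + 1) over the 9 libraries among the 10023 genes averaging 5 FPKM or more. FBXO33 (r = 0.98) and PLOD1 (r = 0.95), a collagen lysyl hydroxylase, were closest to MMP14. CHMP4B (r = 0.96) and the syndecan gene SDC1 (r = 0.95), which is also on the wider list, were closest to MMP7. TIMP2 was most like FOXO3 (r = 0.98), PLAU like KRTCAP2 (r = 0.97), PLAUR like DDX28 (r = 0.98), MMP15 like SEMA3B (r = 0.97) and TIMP1 like DAP (r = 0.95). With 9 libraries, 5 groups and 10023 genes, such values describe these libraries only.

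Splicing of the members was read from a MISO comparison of S34F with wild-type, without replicates. It gives for each event a PSI (percent spliced in, here a fraction) in each condition and a Bayes factor. The libraries used, their doxycycline state and any pooling of replicates are not named. An event counted as past the thresholds with a PSI difference of at least 0.10, a Bayes factor of at least 5 and at least 10 reads over both conditions. There were 25 events listed under 7 members, and none under MMP7, MMP15 or TIMP3. All 25 had enough reads, and 0 were past the thresholds, against 1.18% of 87763 events of all genes. A PSI difference of at least 0.10 alone was seen in 4 of the 25, or 16%, against 32.9% of all events. No interval can be given for a difference, because the comparison has 1 value per condition. The coordinates below are those of the event tables, which do not name a build themselves; the submitters' processing notes name hg19 and GRCh37.

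The largest Bayes factor of a member was in PLAU, and it was small. The skipped exon lies between a splice donor at chromosome 10 position 75671370 and an exon start at position 75671799, or position 75671973 where the exon is skipped. PSI was 0.22 in S34F on 7672 reads and 0.37 in wild-type on 9942 reads, with a Bayes factor of 1.76. The exon was thus included in the minority of transcripts in both conditions, and the evidence lay below the threshold of 5 despite the many reads assigned to the gene. All 8 PLAU events are also listed under C10orf55, which overlaps PLAU, and 3 of them are on the minus strand, opposite to PLAU. C10orf55 was at 2.6 to 5.69 FPKM, against at least 282.3 for PLAU.

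PLAUR had 5 events. The largest PSI difference was that of a skipped exon starting at chromosome 19 position 44169608 on the minus strand, at 0.82 in S34F on 91 reads and 0.60 in wild-type on 132 reads, with a Bayes factor of 1.19. A near-identical event, starting at position 44169611 and measured on a longer transcript with 529 and 605 reads, had PSI of 0.95 and 0.91 and a Bayes factor of 0.17. The version with more reads thus showed a smaller difference. Different events of a gene can have the same read counts, so these may not be reads of the exon itself. MMP14, the member with the largest difference in level between the induced lines, had a pair of tandem acceptor (NAGNAG) events, with PSI of 0.08 against 0.06 and 0.14 against 0.14 on 743 and 845 reads, and Bayes factors of 0.15 and 0.30.

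TIMP2 had 5 events, with Bayes factors up to 1.63. That value belongs to a tandem acceptor event on the plus strand that is also listed under another gene, with 9 and 6 reads. The largest differences, an alternative 3′ splice site at 0.27 against 0.52 and a skipped exon at 0.37 against 0.23, had Bayes factors of 0.96 and 0.88 on 62 to 86 reads and are also listed under DDC8, which was at 0.11 to 3.73 FPKM. The alternative 5′ splice site that is listed under TIMP2 alone had PSI of 0.97 and 0.99 on 1870 and 2326 reads. TIMP1 had 3 events, all also listed under SYN1, a gene at no more than 0.11 FPKM, with PSI differences up to 0.03 and Bayes factors up to 0.14. The single events listed under MMP1 and MMP2 had 10 and 11 reads and 11 and 7 reads. Their PSI differences were 0.04 and -0.06, with Bayes factors of 1.25 and 1.63. That listed under MMP1 is on the plus strand and is also listed under WTAPP1. No strand was matched for MMP1, so whether this event belongs to MMP1 was not settled. TIMP3 lies within SYN3, which was at 0.59 to 1.77 FPKM, above TIMP3 itself.

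**Figure D5:**
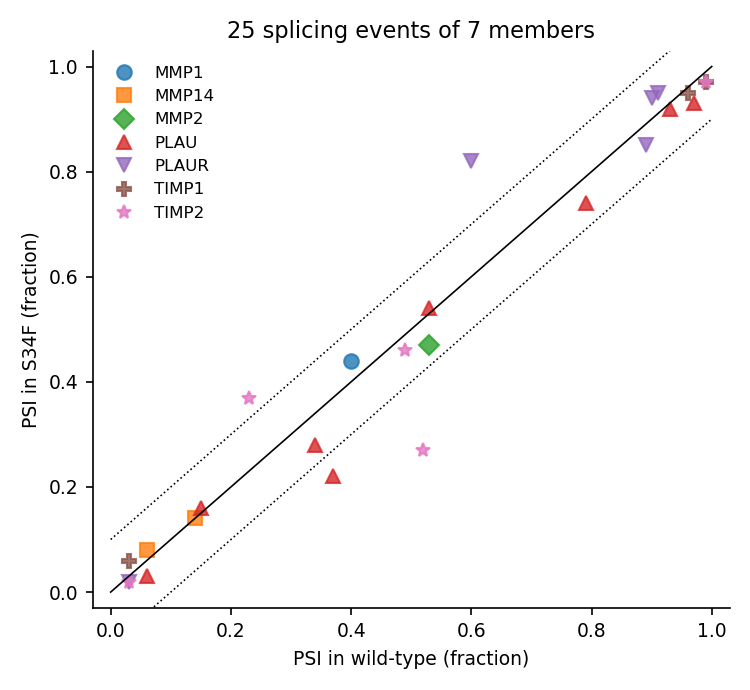
PSI in S34F against PSI in wild-type for the 25 events listed under 7 members, with the line of equal PSI (solid) and differences of 0.10 (dotted). Outside the dotted lines are 4 events, 1 of PLAU, 1 of PLAUR and 2 of TIMP2, with Bayes factors of 1.76 or less.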

How the data were processed

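RNA-Seq was performed on total RNA of 9 HCC78 libraries. Paired-end reads were aligned by the authors with STAR 2.3.0, and RSEM 1.2.29 gave gene-level values, deposited as FPKM and TPM without counts. Count tools could not be applied. For splicing, the authors deposited MISO results as PSI (a fraction), its difference, a Bayes factor (a score) and read counts per condition, without replicates. Of the iCLIP samples nothing was used here.

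Here, log2(FPKM + 1) of the 15179 genes averaging 1 FPKM or more was fitted with limma 3.58.1 (trend, R 4.3.3) over 5 groups, with two-sided tests and Benjamini-Hochberg adjustment over all of them. The script was tested on simulated data. Groups were called without overlap where every library of one exceeded every library of the other. Named genes were all members, wider-list genes with adjusted p under 0.05, and up to 3 in each direction with the largest difference among those with unadjusted p under 0.05, no overlap and a mean reaching 5 FPKM, the 3 most similar genes per member (1 or 2 are printed), and the largest Bayes factor per member. Replicate numbers were not used to pair the samples in the main fit. The members and lists were chosen with earlier results of these data known. The alternatives covered the pseudocount, minimum level, scaling, groups fitted, gene type, replicates and event thresholds. The labels give the parental line as without doxycycline and a supplementary table heading gives it as with it.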

Additional observations from a re-analysis of the deposited data

Results flagged for a closer look

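In FPKM, MMP7 differed in opposite directions between libraries with and without doxycycline in the 2 transduced lines. Both WT dox+ libraries, at 22.47 and 19.43 FPKM, were below both WT dox- libraries, at 22.86 and 28.68, and both S34F dox+ libraries, at 25.15 and 16.81, were above the S34F dox- library, at 16.58. The difference of the responses was 0.58 on the log2 scale, with an unadjusted p of 0.126 and an adjusted p of 1 in limma, so it did not pass the test. The order rests on the scale. In TPM, S34F dox+ was at 20.36 and 14.48 against 15.08 in S34F dox-, and WT dox+ at 20.97 and 17.09 against 20.47 and 25.26 in WT dox-, so both lines overlapped, and the difference of the responses was 0.43. The margins in FPKM were narrow, and the S34F dox- library has no replicate. How many of all genes had such opposite orders was not counted, so whether MMP7 is unusual in this is not known. In the wild-type line alone, 49.6% of all genes did not overlap between WT dox+ and WT dox- in FPKM.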

How the results depend on the processing

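No member had an adjusted p under 0.05 in limma in any of the 4 comparisons under any alternative run, and no member event passed the thresholds under any of the 5 event alternatives. The lowest adjusted p was 0.0637, for MMP1 in WT dox- against parental with protein-coding genes only. The log2 difference of MMP14 between S34F dox+ and WT dox+ lay between 0.53 and 0.89, with adjusted p from 0.374 to 1.

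Of the log2 differences of the members under the alternatives, 22 of 428 turned direction, and the 95% interval of each in the fit reported above included 0. In TPM, MMP15 in WT dox+ against WT dox- was 0.014, PLAUR in the contrast of the responses -0.057 and TIMP1 in WT dox- against parental 0.021. With the replicate number as a block, PLAU in the contrast of the responses was 0.018 and no member's call changed. Leaving out a replicate each, the ranges of those that turned were -0.30 to 0.26 for MMP7 in S34F dox+ against WT dox+; -0.28 to 0.26 for MMP15, -0.60 to 0.013 for PLAU and -0.14 to 0.24 for TIMP1 in WT dox+ against WT dox-; -0.10 to 0.43 for MMP15, -0.40 to 0.21 for PLAU, -0.11 to 0.30 for PLAUR and -0.039 to 0.39 for TIMP2 in the contrast of the responses; and -0.43 to 0.10 for MMP15, -0.28 to 0.41 for PLAU and -0.27 to 0.11 for TIMP1 in WT dox- against parental.

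The count over all genes was less stable. From 8 in S34F dox+ against WT dox+, it was 4 with a pseudocount of 0.1, 3 with no minimum, 5 with the replicate block, 0 with only the groups compared, and 1 to 29 leaving out a replicate. From 2 in WT dox+ against WT dox-, it was 7 with a pseudocount of 0.1, 8 with a minimum mean of 5 FPKM, 0 with no minimum, in TPM, with median-ratio scaling, with quantile normalization and with the replicate block, 1 with only the groups compared, 32 with protein-coding genes only, and 0 to 10 leaving out a replicate. From 4 in the contrast of the responses, it was 33 with no minimum, 0 with protein-coding genes only, and 2 to 11 leaving out a replicate. From 15 in WT dox- against parental, it was 4 with no minimum, 8 with quantile normalization, 6 with the replicate block, 3 with only the groups compared, 58 with protein-coding genes only, and 3 to 23 leaving out a replicate. The events of all genes past the thresholds were 1034, with 392 left when the minimum Bayes factor was 20 and 2907 when it was 2. The cause of these shifts was not tested. Deviations of same-numbered replicates from their group means had correlations between -0.0756 and 0.0374. Whether such replicates share more than a number is not stated. Where a replicate was left out, the lone library was assumed to vary like the others. Reads per library are unknown, S34F dox- has 1 library, and MMP2 and TIMP3 could not be tested.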
